A study of Danio rerio with 9 samples.

Results

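The genes described here are the transcription factor gene ascl1a, the RNA-binding protein gene lin28a and 5 neurogenic transcription factor genes, insm1a, atoh7, neurog1, neurod1 and olig2. They were taken by symbol from a list of 9 genes, lin28b and insm1b being the listed genes with no entry under that symbol in the authors' annotated sheet. The 7 genes found stand among 33737 genes in the count table, and all 7 had enough counts to be tested. RNA was measured in cells sorted by fluorescence from the neural retina of adult zebrafish, 8 to 11 months old, of the line Tg(gfap:EGFP)mi2002. In this line the gfap promoter drives green fluorescent protein in Müller glia, the radial glial cells of the retina, and all 3 groups carry the transgene. The control group, called 0 hours post lesion (hpl), was unlesioned, and the other groups were exposed for 30 min to light above 120000 lux and collected 8 or 16 h later. Each group had 3 libraries.

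In the injured fish retina, Müller glia re-enter the cell cycle and give rise to progenitors that replace lost neurons. Ascl1a, a proneural basic helix-loop-helix (bHLH) factor, is required for this response and acts upstream of lin28a. Lin28 proteins block the maturation of let-7 microRNAs, which otherwise repress messages of the progenitor state. Insm1a, a zinc-finger repressor, is tied to the same response and to the exit of progenitors from the cell cycle. Atoh7, Neurog1, Neurod1 and Olig2 are bHLH factors of neuronal or glial fate, known in the developing retina or neural tube.

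Total expected counts per library ran from 11714633 to 26608088, the lowest in 16 hpl replicate 3. On the first principal component, which held 30.7% of the variance, 2 libraries of 8 hpl (replicates 1 and 3, at 53.3 and 63.5) and 1 of 16 hpl (replicate 2, at 92.2) were far from the remaining 6, whose scores ran from −43.3 to −15.1. For a part of the results the value without these 3 outlying libraries is also given. The fit without them leaves a single library at 8 hpl, whose spread is taken from the other groups. All groups also held RNA of other retinal cells. The 9 rod markers summed to between 42131 and 114075 CPM (counts scaled to a common library size with TMM factors) over all libraries, against 977 to 1962 CPM for the 5 Müller glia markers found of 8 listed, none of which was at 0 in any group. The labels do not say whether replicates came from separate animals, so the p-values rest on differences among these samples alone, and those may be technical. The samples analysed here hold no unlesioned group matched in time to 8 or 16 hpl, so lesion and time of day cannot be told apart. In these bulk samples fewer cells of a type and less RNA per cell cannot be told apart either.

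The clearest change was in lin28a, which went from no counts in unlesioned libraries to low levels at 8 hpl and higher levels at 16 hpl. ascl1a was highest at 16 hpl, with a wide spread between libraries, and did not pass the test in any comparison either. insm1a, atoh7, neurog1, neurod1 and olig2 did not pass the test in any comparison, and for neurod1 the libraries within a group differed several times over. Differences were tested with edgeR's quasi-likelihood F test over 19875 genes, and called at a Benjamini-Hochberg adjusted p under 0.05.

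**Figure D1:**
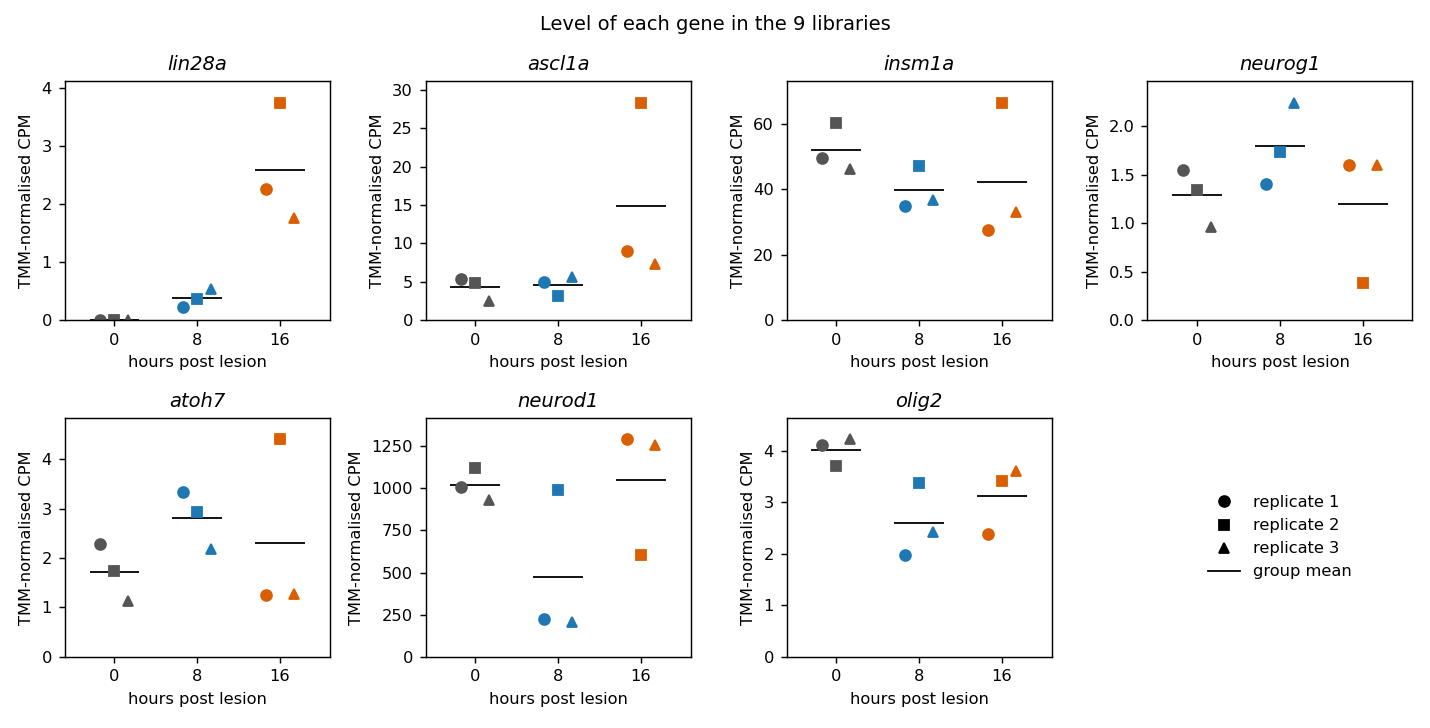
TMM-normalised CPM (vertical axes, linear, each starting at 0) of the 7 genes against hours post lesion. Symbols mark replicates 1, 2 and 3, and lines mark group means. lin28a stood at 0 in all 3 unlesioned libraries and between 1.76 and 3.74 CPM at 16 hpl, and 16 hpl replicate 2 was the highest of the 9 libraries for ascl1a, lin28a, insm1a and atoh7.

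lin28a (ENSDARG00000016999) had 0 counts in each unlesioned library. It had 6, 9 and 12 counts in 8 hpl replicates 1, 2 and 3, which are 0.227, 0.362 and 0.537 CPM. At 16 hpl it had 52, 79 and 22 counts, or 2.25, 3.74 and 1.76 CPM. The 3 groups did not overlap, and each library at 16 hpl stood above each at 8 hpl. lin28a rose at 8 hpl by edgeR (adjusted p = 0.0346) and at 16 hpl (adjusted p = 0.00615), both against 0 hpl. With a floor of 3 counts over the unlesioned group, the scaled ratio of summed counts was 7.157 at 8 hpl and 52.63 at 16 hpl. These ratios leave out the counting error of the lesioned groups, so they are not lower bounds. From 8 to 16 hpl the scaled ratio of summed counts, 153 against 27, was 7.35 (exact 95% binomial interval 4.86 to 11.5, counting error only). That step was 2.78 ± 0.61 on the log2 scale (SE; 95% interval 1.37 to 4.18) and did not pass edgeR's adjustment over all genes (adjusted p = 0.128), while it passed DESeq2's Wald test (adjusted p = 0.00254). With the 3 outlying libraries left out the step was 2.46 by edgeR.

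With 0 counts in the unlesioned group, the size of the log2 fold change of lin28a depends on how each method treats 0. At 8 hpl it was 5.99 by edgeR, 5.3 by DESeq2, 3.84 by limma voom and 3.76 in the deposited table. The call for lin28a at 8 hpl rested on 27 counts in all and ended in 10 of 18 alternatives, with edgeR, DESeq2, limma and deposited adjusted p values from 0.000188 to 0.122. It ended without any 1 of 0 hpl replicates 1, 2 and 3, 8 hpl replicates 1 and 3 or 16 hpl replicate 1, with log2 fold changes between 5.64 and 6.21, and with the 3 outlying libraries left out (adjusted p = 0.0608 by edgeR). The call at 16 hpl passed in all 18 alternatives, with adjusted p values from 1.51e-07 to 0.041, and without the 3 libraries it stood at 0.00275 by edgeR.

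A gene at 0 in the unlesioned libraries could reach the test only through its counts in lesioned libraries, and this holds for lin28a. The counts of such genes are therefore a description and no test of lin28a. Of 7985 genes with 0 counts in all 3 unlesioned libraries, 20 had enough counts elsewhere to be tested. Among these, lin28a, PXN (ENSDARG00000088590) and DNAL1 (ENSDARG00000097505) were the 3 genes with 10 or more counts in every 16 hpl library, a cutoff chosen after their values were seen. PXN had 20 summed counts at 8 hpl and 82 at 16 hpl. DNAL1 had 0 and 71.

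The gene name table, which lies outside the rule used to choose the genes, gives the symbol LIN28B to ENSDARG00000052511. This entry had 0 counts at 0 hpl, 1 at 8 hpl and 7 at 16 hpl, and 6 of the 7 came from 16 hpl replicate 2. It was too low to be tested. A further LIN28A entry of that table, ENSDARG00000004328, had 0 counts in all 9 libraries.

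ascl1a (ENSDARG00000038386) was detected in the unlesioned libraries and was 3.5-fold higher at 16 hpl, a difference that did not pass the adjustment. Its levels were 5.38, 4.87 and 2.51 CPM in 0 hpl replicates 1, 2 and 3. At 8 hpl they were 4.93, 3.14 and 5.55 CPM, within or just beside the unlesioned range. At 16 hpl they were 9.04, 28.3 and 7.29 CPM, all above the other 6 libraries, with replicate 2 more than 3 times as high as the others. Group means were 4.26 ± 1.53, 4.54 ± 1.25 and 14.9 ± 11.6 CPM (SD, n = 3).

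The log2 fold change of ascl1a at 16 hpl against 0 hpl was 1.81 ± 0.52 (SE; 95% interval 0.65 to 2.97; edgeR adjusted p = 0.118). At 8 hpl it was 0.09 ± 0.52 (interval −1.06 to 1.24; edgeR adjusted p = 0.963), and from 8 to 16 hpl it was 1.72 ± 0.52 (interval 0.56 to 2.87; adjusted p = 0.203). Without 16 hpl replicate 2 the 16 hpl value fell to 0.94 by edgeR (adjusted p = 0.251), and with the 3 outlying libraries left out it was 0.95 (adjusted p = 0.126). DESeq2's Wald test on all 9 libraries gave 1.8 at 16 hpl against 0 hpl (adjusted p = 0.0156), and 1.71 against 8 hpl (adjusted p = 0.0362). The edgeR value from 8 to 16 hpl fell to 0.85 without 16 hpl replicate 2 (interval 0.03 to 1.67; adjusted p = 0.275). With the 3 outlying libraries left out that value was 1.39. The libraries of 16 hpl lay above those of 0 hpl in every pair, a pattern that 10.7% of all tested genes showed in that direction.

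insm1a (ENSDARG00000091756) had 3075 summed counts in the unlesioned libraries and was not called at either time. Its levels were 49.4, 60.3 and 46.1 CPM in unlesioned libraries, 35.0, 47.0 and 36.8 CPM at 8 hpl and then 27.5, 66.4 and 33.1 CPM at 16 hpl. At 16 hpl replicates 1 and 3 lay below every unlesioned library, and replicate 2 lay above every one. Over all 9 libraries the log2 fold change was −0.39 ± 0.30 at 8 hpl (SE; 95% interval −1.07 to 0.28; edgeR adjusted p = 0.603) and −0.29 ± 0.30 at 16 hpl (interval −0.97 to 0.38; adjusted p = 0.732).

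The size of the insm1a difference at 16 hpl depended on that library. Without 16 hpl replicate 2 it was −0.78 ± 0.20 by edgeR (adjusted p = 0.0745). Without the 3 outlying libraries it was −0.78 ± 0.18 and was called lower (edgeR adjusted p = 0.0181).

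Among the proneural bHLH genes, atoh7 (ENSDARG00000069552), a gene of early retinal neurogenesis and ganglion cell fate, was low throughout. It measured 2.29, 1.74 and 1.12 CPM in unlesioned libraries, 3.33, 2.93 and 2.19 CPM at 8 hpl and then 1.25, 4.40 and 1.28 CPM at 16 hpl. Its lowest library at 8 hpl lay just under the highest unlesioned one, and at 16 hpl replicate 2 stood apart from the other two. The log2 fold changes of atoh7 were 0.72 at 8 hpl (95% interval −0.46 to 1.89; edgeR adjusted p = 0.583) and 0.44 at 16 hpl (interval −0.75 to 1.63; adjusted p = 0.784).

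neurog1 (ENSDARG00000056130), a proneural gene of sensory neurons, had the lowest mean FPKM at 0 hpl (1.19, per transcript length) of the 6 genes with counts in every library. Its levels were 1.55, 1.34 and 0.963 CPM in unlesioned libraries, 1.4, 1.73 and 2.24 CPM at 8 hpl and then 1.60, 0.379 and 1.60 CPM at 16 hpl. The lowest value, in 16 hpl replicate 2, came from 8 counts. Its log2 fold changes were 0.48 at 8 hpl (interval −0.73 to 1.69; edgeR adjusted p = 0.749) and −0.12 at 16 hpl (interval −1.35 to 1.12; adjusted p = 0.958).

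neurod1 (ENSDARG00000019566), which promotes photoreceptor and amacrine cell differentiation and is also expressed in photoreceptors, had by far the highest FPKM of the 7 genes, with means from 245 to 548. It stood at 1008, 1119 and 928 CPM at 0 hpl. At 8 hpl it stood at 225, 987 and 208 CPM in replicates 1, 2 and 3, so that replicate 2 lay within the unlesioned range and the others lay far below it. At 16 hpl it stood at 1289.8, 604 and 1257 CPM, and here replicate 2 was the low library. The low values thus came from the same 3 libraries that lie apart on the first principal component.

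The group means of neurod1 were 1018 ± 95.7, 473 ± 445 and 1050.1 ± 387 CPM (SD, n = 3). The log2 fold changes were −1.11 ± 0.56 at 8 hpl (SE; interval −2.35 to 0.14; edgeR adjusted p = 0.376) and 0.04 at 16 hpl (interval −1.18 to 1.27; adjusted p = 0.981). Leaving out 8 hpl replicate 2 gave −2.23 ± 0.35 at 8 hpl, called by edgeR (adjusted p = 0.0062). Leaving out the 3 outlying libraries gave −0.05 ± 0.21 (adjusted p = 0.933). From 8 to 16 hpl the value was 1.15 (interval −0.09 to 2.39; edgeR adjusted p = 0.407), and without 8 hpl replicate 2 it was 2.28 and called (adjusted p = 0.0121). Without 8 hpl replicate 1 it was 0.81, and without 8 hpl replicate 3 it was 0.79, neither called by edgeR (adjusted p = 0.782 and 0.744). With the 3 outlying libraries left out this value was 0.38.

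The clock repressor gene per1b, whose RNA cycles over the day, divided the libraries as neurod1 did. per1b measured 998, 1137 and 664 CPM in unlesioned libraries, 181, 1309 and 195 CPM at 8 hpl and then 1214, 369 and 1490.3 CPM at 16 hpl. per2, a light-induced clock gene, ran the other way, with 806, 278 and 831 CPM at 8 hpl and 81.7, 244 and 108 CPM at 16 hpl, against 11.6 to 42.6 CPM at 0 hpl.

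Cone markers did not move as one with neurod1. The 9 markers found of 11 listed summed to 9706 to 12565 CPM at 0 hpl, 3020.1 to 5991 CPM at 8 hpl and 4302 to 8089.5 CPM at 16 hpl, and none was at 0 in any group. The most abundant, pde6h, a cone phosphodiesterase subunit gene, had the same highest library as neurod1 at 8 hpl and the same lowest one at 16 hpl. It measured 7659, 6974 and 8723 CPM in unlesioned libraries, 1015, 4786 and 969 CPM in the libraries of 8 hpl and 6761, 3436 and 5597 CPM in those of 16 hpl, in replicate order. The other 8 markers summed to 2005, 1205 and 2324 CPM at 8 hpl, where replicate 2 was the lowest, and to 1328, 867 and 1110.3 CPM at 16 hpl. Of the sums at 8 hpl, arr3a alone gave 1148, 265 and 1289 CPM. Highest in 8 hpl replicate 2 were also opn1lw2, with 121, 329 and 126 CPM, and opn1mw1, with 112, 193 and 115 CPM. In 8 hpl replicate 2, 3 of the 9 markers had their highest value of that group and 5 their lowest. In 16 hpl replicate 2, 2 had their highest and 7 their lowest.

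Summed amacrine markers, 6 found of 7 listed with none at 0 in any group, ran from 714 to 956 CPM at 0 hpl, from 654 to 728 CPM at 8 hpl and from 554 to 601 CPM at 16 hpl. Rod markers summed to 95317, 91664 and 91675 CPM at 8 hpl and to 63349, 42131 and 71962 CPM at 16 hpl, in replicate order. Among them nr2e3 had 120.3, 4104 and 136 CPM at 8 hpl, and sagb went the other way with 8971, 1535 and 9223 CPM. Bipolar markers, 4 found of 5 listed, summed to 636, 1012 and 691 CPM at 8 hpl. At 16 hpl they summed to 1129, 426 and 875 CPM. The part of clock phase and of cone, rod, bipolar or amacrine RNA in the neurod1 values was not tested.

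**Figure D2:**
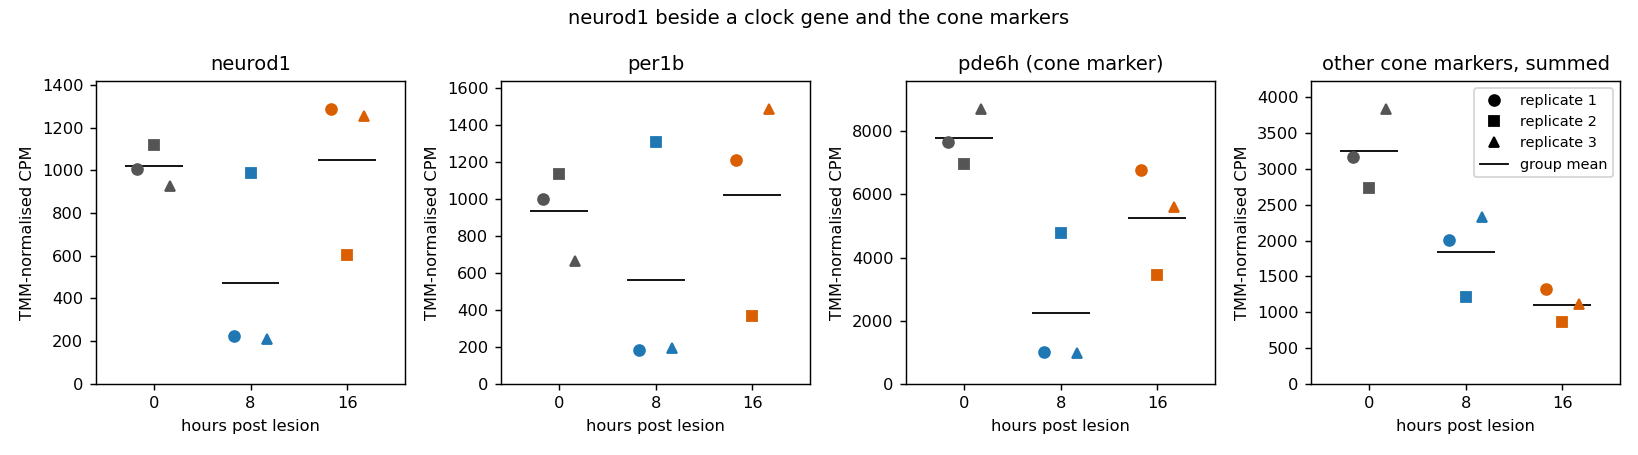
TMM-normalised CPM (linear axes starting at 0) of neurod1, of the clock gene per1b, of the cone marker pde6h and of the other 8 cone markers summed, against hours post lesion, with symbols for replicates 1 to 3 and lines for group means. For neurod1, per1b and pde6h, 8 hpl replicate 2 is the highest library of its group. For the sum of the other cone markers it is the lowest, at 1205 CPM. Of that sum arr3a gave 1148, 265 and 1289 CPM in 8 hpl replicates 1, 2 and 3.

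olig2 (ENSDARG00000040946), a bHLH gene of oligodendrocyte and motor neuron precursors, was lower in every lesioned library than in every unlesioned one. It measured 4.12, 3.71 and 4.22 CPM in unlesioned libraries, 1.97, 3.38 and 2.42 CPM at 8 hpl and then 2.38, 3.41 and 3.60 CPM at 16 hpl. The differences did not pass the adjustment, with log2 fold changes of −0.63 ± 0.32 at 8 hpl (SE; 95% interval −1.34 to 0.07; edgeR adjusted p = 0.37) and −0.36 at 16 hpl (interval −1.07 to 0.34; adjusted p = 0.671). Taken at each time alone, such a separation downwards was common, at 12.9% of all tested genes at 8 hpl and 10.4% at 16 hpl. The share of genes lower at both times was not counted. With the 3 outlying libraries left out, the log2 fold change of olig2 was −0.25 at 8 hpl and −0.44 at 16 hpl by edgeR.

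Summed oligodendrocyte markers, 6 found of 8 listed with none at 0 in any group, were higher in the lesioned groups. They summed to 151 to 166 CPM at 0 hpl, 218 to 257 CPM at 8 hpl and 208 to 355 CPM at 16 hpl. The rise was uneven over the markers. At 16 hpl against 0 hpl the edgeR log2 fold changes of mbpa, mbpb, plp1b, sox10, cldnk and mpz were 0.53, 0.09, 0.96, −0.02, 1.4 and 0.59. Within the 8 hpl group the markers, at 218, 257 and 224 CPM, had the same order of libraries as olig2. The orders differed at 0 hpl, with markers at 166, 151 and 154 CPM, and at 16 hpl, with markers at 208, 355 and 224 CPM. Their part in the olig2 values was not tested.

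The log2 fold changes from 8 to 16 hpl of insm1a, atoh7, neurog1 and olig2 were 0.10, −0.28, −0.59 and 0.27, with edgeR adjusted p values of 0.932, 0.877, 0.696 and 0.778. Both comparisons with 0 hpl share the same 3 unlesioned libraries.

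Counted together, 1 of the 7 genes was called higher at 8 hpl against 0 hpl (lin28a) and 0 lower, where edgeR called 1.90% of all genes higher and 0.931% lower. At 16 hpl against 0 hpl 1 was called higher (lin28a) and 0 lower, beside 1.45% and 0.639% of all genes. From 8 to 16 hpl edgeR called 0 of the 7 in either direction, beside 0.0604% higher and 0.0403% lower among all genes. In that last comparison 2 of the 7 had an unadjusted p under 0.05 by edgeR, as did 13.6% of all genes. DESeq2 called 2 of the 7 there, and 766 of all 19875 genes tested.

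The same 7 genes were also counted by whether all libraries of a group lay above or below those of another. At 8 hpl lin28a lay above 0 hpl and olig2 below it, where 13.9% of all genes lay above and 12.9% below. At 16 hpl lin28a and ascl1a lay above 0 hpl and olig2 below, beside 10.7% of all genes above and 10.4% below. Between 8 and 16 hpl lin28a and ascl1a lay higher at 16 hpl, as did 8.49% of all genes, and none of the 7 lay lower, as did 8.34%. The median log2 fold change of the 7 was 0.09, 0.04 and 0.27 in the 3 comparisons.

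Levels can be set against each other between genes only per length, in the deposited FPKM (fragments per kilobase of transcript, scaled to library size). On mean FPKM the order at 0 hpl was neurod1 (534), insm1a (29.2), olig2 (3.07), ascl1a (2.75), atoh7 (2.18), neurog1 (1.19) and lin28a (0). olig2, ascl1a and atoh7 overlapped in their library ranges there. At 8 hpl atoh7 (3.53) followed insm1a (23.0), and its range overlapped that of ascl1a (2.91), while olig2 (1.96) and neurog1 (1.66) overlapped each other.

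By 16 hpl ascl1a had a mean of 9.62 FPKM and lin28a one of 3.52 FPKM, next after neurod1 (548) and insm1a (23.5). The ranges of insm1a (14.4 to 35.2) and ascl1a (4.65 to 18.3) overlapped, as did those of ascl1a and lin28a (2.47 to 5.39). atoh7 (2.93) and olig2 (2.39) overlapped lin28a, and neurog1 (1.11) was last. The mean of lin28a thus passed those of atoh7, olig2 and neurog1 on this scale, and of these only neurog1 had a range apart from that of lin28a.

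The library 16 hpl replicate 2 was the highest of all 9 for 4 of the 7 genes (ascl1a, lin28a, insm1a and atoh7) and the lowest for neurog1. Among all tested genes it was the highest for 23.7% and the lowest for 20.5%, the largest of both shares over the 9 libraries.

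The authors' deposited table gave more calls among the same 7 genes. At 8 hpl its adjusted p was under 0.05 for lin28a (log2 fold change 3.76, adjusted p = 0.000188), and, in the lower direction, for neurod1 (−2.16, 2.71e-05), olig2 (−0.85, 0.0111) and insm1a (−0.54, 0.012). That is 1 of 7 higher and 3 of 7 lower, in a table where 19.7% of genes were higher and 18.0% lower. At 16 hpl the authors' deposited table had lin28a (6.45, 8.88e-06) and ascl1a (1.04, 0.0427) higher and insm1a lower (−0.82, 0.0111), beside 6.86% of all genes higher and 6.30% lower. It did not call neurod1 at 16 hpl (0.25, adjusted p = 0.604).

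The deposited fold changes lay close to those of a model that gives each library its own weight. With limma voom and sample quality weights, an alternative chosen after seeing the data, the log2 fold change was within 0.1 of the authors' deposited value in 99.7% of 15530 genes at 8 hpl and in 99.0% at 16 hpl. Without weights limma voom was that close for 39.4% and 36.2%, and edgeR for 39.3% and 36.6%. For the authors' own model, no statement is given in the sources used here.

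In the weighted fit 8 hpl replicate 2 had a weight of 0.241 and 16 hpl replicate 2 one of 0.189. The other libraries of these groups had weights of 2.637 and 1.893 at 8 hpl and of 2.34 and 0.724 at 16 hpl. The fit thus leaned on replicates 1 and 3, in which neurod1 was low at 8 hpl and insm1a was low at 16 hpl. It called 4 of the 7 genes at 8 hpl: lin28a (3.74, adjusted p = 0.00855 by limma), neurod1 (−2.14, 6.95e-05), olig2 (−0.85, 0.0183) and insm1a (−0.55, 0.0209). At 16 hpl limma called lin28a (6.47, 0.000527), ascl1a (1.06, 0.0451) and insm1a (−0.82, 0.0126). From 8 to 16 hpl it called ascl1a (0.89, 0.0357), lin28a (2.74, 0.00163) and neurod1 (2.39, 0.000257), all higher at 16 hpl. Calls were common in this fit. Of all 19875 genes tested it called 5516 at 8 hpl, 2087 at 16 hpl and 4931 from 8 to 16 hpl, both directions together.

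**Figure D3:**
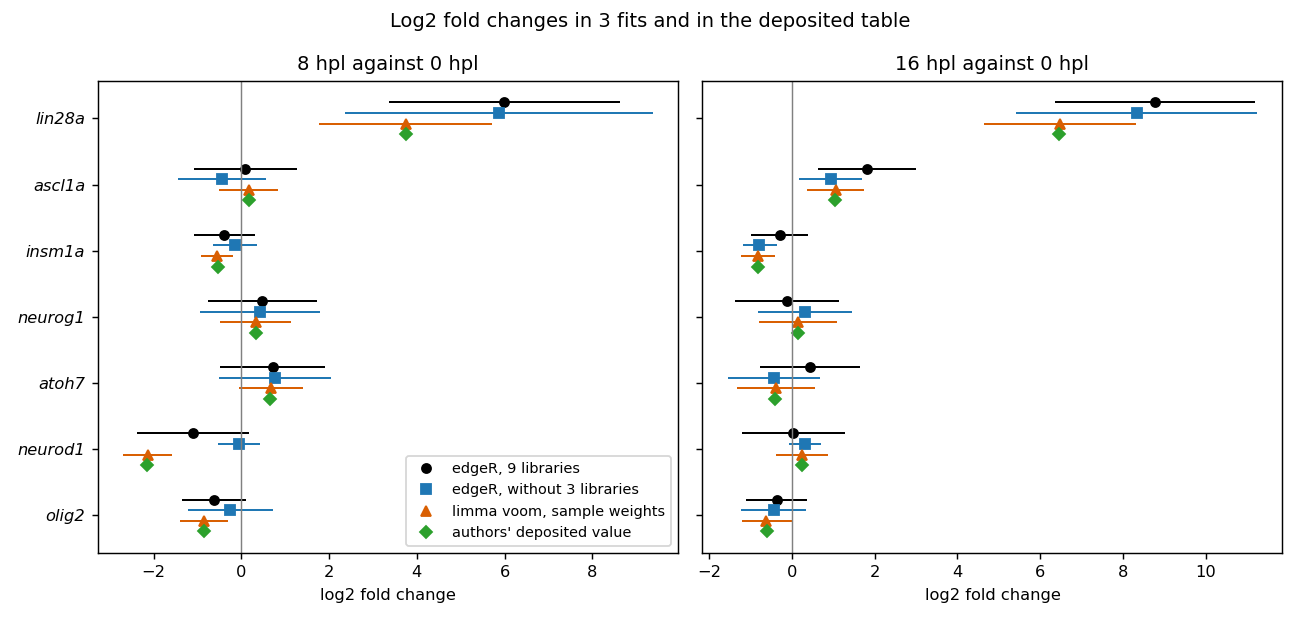
Log2 fold changes (horizontal axes) of the 7 genes at 8 and 16 hpl against 0 hpl, from edgeR on 9 libraries, edgeR without the 3 outlying libraries, limma voom with sample weights, and the authors' deposited table. Bars are 95% intervals, and the deposited values have none. The unlesioned group is at 0 for lin28a, so the size of its log2 fold changes depends on the method. The weighted fit and the deposited value lie together in every row, and for neurod1 at 8 hpl the values run from −2.16 in the deposited table to −0.05 without the 3 libraries.

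Related genes were followed in 6 lists of 83 genes, of which 66 were found and 54 tested. edgeR called 3 of the 54 higher and 0 lower at 8 hpl, 1 higher and 0 lower at 16 hpl, and 0 from 8 to 16 hpl. Over all tested genes it called 1.90% higher and 0.931% lower at 8 hpl, and 1.45% and 0.639% at 16 hpl. The 7 other neural bHLH genes tested, among them neurod4, neurod2 and bhlhe23, had no call. Their median log2 fold change was −0.81 at 8 hpl and −0.54 at 16 hpl, against 0.02 and 0.03 over all genes.

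Among the E proteins, which pair with proneural factors, and the Id proteins, which hold E proteins off them, 1 of 7 was called, with a list median of −0.14 at 8 hpl and 0.27 at 16 hpl. id2b (ENSDARG00000029544) rose at 8 hpl, with a log2 fold change of 3.09 ± 0.58 (SE; edgeR adjusted p = 0.0254). It measured 11.7, 8.36 and 16.8 CPM in unlesioned libraries, 149, 23.3 and 142 CPM at 8 hpl and then 19.6, 19.6 and 14.7 CPM at 16 hpl. The high values were in 8 hpl replicates 1 and 3, and with the 3 outlying libraries left out the value was 0.92 (adjusted p = 0.141 by edgeR).

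In the list of let-7 processing genes and Lin28 partners and targets, 1 of 12 was called. trim71 (ENSDARG00000075593), a let-7 target gene for a stem cell protein, rose at 8 hpl with a log2 fold change of 1.27 ± 0.26 (SE; edgeR adjusted p = 0.0339). Its levels were 31.4, 34.4 and 31.7 CPM in unlesioned libraries, 97.9, 52.2 and 84.6 CPM at 8 hpl and then 60.0, 39.0 and 65.5 CPM at 16 hpl, so that all 6 lesioned libraries lay above the unlesioned ones. Without the 3 libraries it was 0.68 (adjusted p = 0.0559). Of all tested genes, 13.9% lay above the unlesioned libraries at 8 hpl and 10.7% at 16 hpl. The list's median was −0.11 at 8 hpl and 0.03 at 16 hpl. dicer1, the final let-7 processing enzyme, had a log2 fold change of 0.07 ± 0.20 at 16 hpl (adjusted p = 0.928).

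Among genes of Insm1 cofactors, kdm1a (ENSDARG00000060679), a histone demethylase that works with Insm1 in mammals, rose at 8 hpl by 1.01 ± 0.21 on the log2 scale (SE; edgeR adjusted p = 0.0365), from 116, 116 and 107 CPM to 254, 159 and 272 CPM. It stood at 136, 158 and 147 CPM at 16 hpl, still above the unlesioned libraries, as 10.7% of all tested genes were. Without the 3 libraries its value at 8 hpl was 0.49 (edgeR adjusted p = 0.159). It was the 1 gene called of 5 tested cofactor genes, a group put together after the values were seen, where edgeR called 1.90% of all genes higher. The deacetylase gene hdac1 had 182, 165 and 176 CPM in unlesioned libraries against 136, 134 and 137 CPM at 8 hpl, with a log2 fold change of −0.36 ± 0.17 (edgeR adjusted p = 0.338). The corepressor genes rcor1, rcor2 and rcor3 had log2 fold changes of −0.35, −0.07 and 0.50 (edgeR adjusted p = 0.302, 0.961 and 0.539). At 8 hpl all 3 libraries lay below the unlesioned ones for hdac1 and rcor1 and above them for rcor3. Such separation was common, with 12.9% of all tested genes below and 13.9% above at 8 hpl. The calls for id2b, trim71 and kdm1a also ended without any 1 of the 0 hpl replicates, or of 8 hpl replicates 1 and 3, and those for trim71 and kdm1a also without 16 hpl replicate 1. That for id2b ended as well with limma voom and with no filter on low counts.

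Among 3 tested pluripotency factors, sox2 (ENSDARG00000070913), a factor that keeps neural progenitors and Müller glia in their state, rose at 16 hpl. It measured 15.1, 15.2 and 14.5 CPM in unlesioned libraries, 13.3, 17.5 and 18.8 CPM at 8 hpl and then 29.1, 26.5 and 30.2 CPM at 16 hpl. The log2 fold change was 0.94 ± 0.19 (SE; edgeR adjusted p = 0.0315), and with the 3 outlying libraries left out it was 0.99 (adjusted p = 0.00392). The call ended without any 1 of the 0 hpl replicates, 8 hpl replicate 3, 16 hpl replicate 1 or 16 hpl replicate 3, with log2 fold changes from 0.90 to 0.99 over all single omissions. The median of the 3 was 0.14 at 8 hpl and 0.55 at 16 hpl.

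None of 9 tested newborn neuron and precursor markers was called, with a median log2 fold change of −0.39 at 8 hpl and −0.28 at 16 hpl. The pan-neuronal RNA-binding protein gene elavl3 had 11.6, 11.9 and 11.0 CPM in unlesioned libraries against 5.75, 9.47 and 11.6 CPM at 16 hpl, with overlapping libraries (edgeR adjusted p = 0.607).

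For each gene, the genes most like it were ranked by Pearson's r of log2 CPM over the 9 libraries, among 11524 named genes with a mean of at least 1 CPM. Libraries share depth and composition, so these values are descriptions. lin28a was most like adam8a, which encodes a membrane metalloprotease, and tle2c, which encodes a Groucho corepressor (r = 0.985 for both), and prnprs3 (0.983). adam8a measured 0.573, 0.804 and 0.695 CPM in unlesioned libraries, 4.02, 5.39 and 5.95 CPM at 8 hpl and then 16.9, 22.6 and 14.3 CPM at 16 hpl, with no overlap between groups, as for lin28a.

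ascl1a was most like noc2l (r = 0.976), rgl3a (0.969) and socs3a (0.966), the last a feedback inhibitor of cytokine signalling through Stat3. socs3a measured 55.7, 55.3 and 25.9 CPM in unlesioned libraries, 50.5, 53.7 and 60.3 CPM at 8 hpl and then 92.8, 279 and 98.9 CPM at 16 hpl. Like ascl1a it was lowest in 0 hpl replicate 3 and by far highest in 16 hpl replicate 2.

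insm1a was most like dla (r = 0.970), a Delta ligand gene of the Notch pathway, alcamb (0.932) and nif3l1 (0.923). dla measured 7.50, 8.98 and 7.70 CPM in unlesioned libraries, 4.81, 5.59 and 5.10 CPM at 8 hpl and then 3.29, 10.5 and 4.48 CPM at 16 hpl. It shares with insm1a the low values in 16 hpl replicates 1 and 3 and the maximum in 16 hpl replicate 2.

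neurod1 was most like nptx2a, znf395b and SIK1 (r = 0.993, 0.993 and 0.992), all low in the 3 outlying libraries. SIK1, a salt-inducible kinase gene, had 61.3, 336 and 68.0 CPM in the 3 libraries of 8 hpl, in replicate order. atoh7 was most like taz (r = 0.938), polg (0.935) and hsd11b2 (0.933), neurog1 most like apbb1ip (0.967), PQLC1 (0.957) and trim35-34 (0.946), and olig2 most like KIRREL1 (0.951), rltpr (0.932) and inab (0.918). Among the 7 genes themselves, r was highest for ascl1a with lin28a (0.76) and lowest for insm1a with neurog1 (−0.63).

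**Figure D4:**
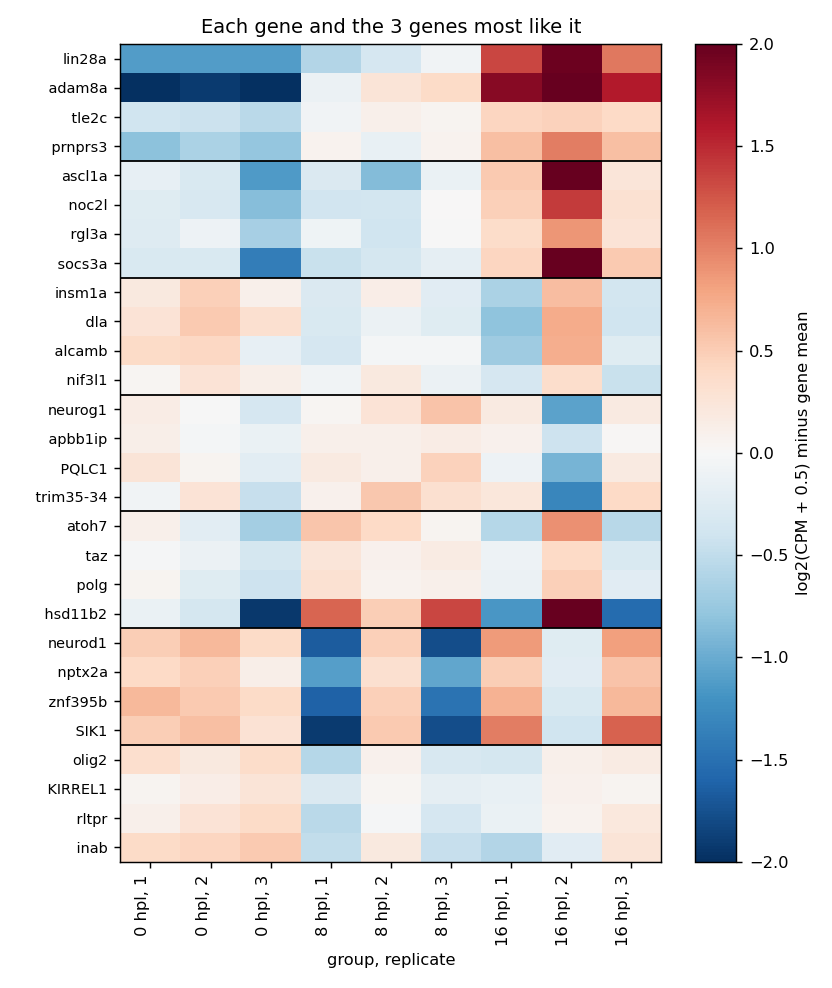
Levels of each of the 7 genes and of the 3 genes most like it (rows) in the 9 libraries (columns), as log2(CPM + 0.5) minus the gene's mean, with the colour scale ending at −2 and 2. The lin28a group rises from 0 to 16 hpl in all libraries, the ascl1a group peaks in 16 hpl replicate 2, and the neurod1 group is low in 8 hpl replicates 1 and 3.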

How the data were processed

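Sequenced RNA came from cells sorted by fluorescence from Tg(gfap:EGFP)mi2002 zebrafish at 0, 8 and 16 hpl, with 3 libraries in each of 3 groups. Per the labels' protocols, libraries were stranded and read from a single end. The submitters' processing notes name the build Zv9, limma 3.24.15 and edgeR 3.10.2, RSEM 1.2.22 and Bowtie2 2.2.6, and FastQC 0.10.1, cutadapt 1.4.2 and Trim Galore 0.2.7. For their roles and for the annotation release, no statement is given in the sources used here. The deposited expected counts are RSEM estimates for 33737 genes, without normalization. The deposited FPKM are per kilobase and library size, as the authors scaled them. The authors' deposited table holds log2 fold changes and mean log2 levels, moderated statistics and log odds (score columns), and p-values and adjusted p-values, with the column names of limma output per the file headers.

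Expected counts were rounded and fitted in edgeR 4.0.16 (R 4.3.3) by its quasi-likelihood F test with robust dispersions, after filterByExpr on groups and with TMM factors from 0.873 to 1.07. One fit of 9 libraries had 6 residual degrees of freedom. The p-values are two-sided and were adjusted by Benjamini-Hochberg over 19875 genes. Standard errors divide the size of the log2 fold change by the root of F. The exact binomial interval of lin28a and the floor of counts cover counting error only. Intervals of log2 fold changes rest on the standard errors of the fit, which also take in the spread between libraries. The authors' sheet gave symbols to 12581 genes, the gene name table gave them to another 9741, and 11415 stayed unnamed. The fit was tested on simulated data.

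The genes, lists and markers were chosen with earlier results of these data known. The count and median of 1 of the 6 lists are not reported here. Named beside the 7 genes are list genes past the threshold, up to 6 a list, the 3 genes most like each, and per1b and per2. Neurod4, neurod2, bhlhe23, dicer1, elavl3, pde6h, arr3a, opn1lw2, opn1mw1, nr2e3, sagb, hdac1 and the rcor genes are examples chosen after their values were seen. All markers found of Müller glia and of oligodendrocytes are named as well. Alternatives were DESeq2 1.42.0 size factors and Wald test, no filter, 2 groups only, a replicate block, each library left out, the 3 libraries left out, CPM in place of FPKM for the order of levels, the authors' table and, added after seeing the data, limma 3.58.1 voom without and with sample weights. Replicate columns within a group were not identical.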

Additional observations from a re-analysis of the deposited data

Results flagged for a closer look

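The LIN28B entry of the gene name table, outside the tested genes, had 7 counts at 16 hpl against 0 in the unlesioned libraries. The 7 counts are above the floor of 3 counts used here for a group at 0. That floor leaves out the counting error of the 7 and the spread between libraries, so it cannot decide whether the entry rose. Of the 7 counts, 6 came from 16 hpl replicate 2, and the cause was not tested.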

How the results depend on the processing

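The 7 genes gave 371 values under alternatives, of which 321 kept direction and side of the threshold, 10 lost a call, 19 gained one and 21 changed sign, and 0 of the 21 were past the threshold. At 8 hpl against 0 hpl the count of the 7 genes called, 1, became 0 with 2 groups only, with the replicate block, without the 3 outlying libraries and with limma voom, 4 with sample weights and in the authors' deposited table, and 0 to 2 with 1 library left out. At 16 hpl against 0 hpl the count, 1, became 2 by DESeq2's Wald test and without the 3 libraries, and 3 with sample weights and in the authors' table. From 8 to 16 hpl the count, 0, became 2 by DESeq2 and 3 with sample weights, and 0 to 1 with 1 library left out. Over all genes, 563 calls at 8 hpl became 1484 by DESeq2, 1006 with 2 groups only, 147 with the replicate block, 1035 without the 3 libraries, 5516 with sample weights and 95 to 1320 with 1 library left out. The 415 at 16 hpl became 1260, 168 with the block, 1586 without the 3 libraries, 2087 with weights and 103 to 661. The 20 from 8 to 16 hpl became 766 by DESeq2, 44 without a filter, 0 with 2 groups only, 0 with the block, 98 without the 3 libraries, 4931 with weights and 0 to 677. Same-numbered libraries correlated between −0.425 and 0.118 over 9 pairs, as deviations from group means, and 1 of 9 libraries lay closest to its own number. These correlations cannot decide whether same-numbered libraries share a batch, because the outlying libraries bear different numbers at 8 and 16 hpl. The labels do not say what they share. The replicate block also ended the calls of lin28a, id2b, trim71 and kdm1a at 8 hpl and of sox2 at 16 hpl. Uncalled log2 fold changes that changed sign were ascl1a at 8 hpl (−0.45 without the 3 libraries, −0.18 to 0.30 with 1 left out), atoh7 at 16 hpl (−0.43, −0.38 with weights, −0.40 in the authors' table, −0.44 to 0.74), neurog1 at 16 hpl (0.32, 0.14, 0.15, −0.42 to 0.32), neurod1 at 16 hpl (−0.02 with limma voom, −0.13 to 0.32), and, from 8 to 16 hpl, insm1a (−0.63 without the 3 libraries, −0.27 with weights, −0.39 to 0.33), atoh7 (−1.15 to 0.03) and olig2 (−0.18 without the 3 libraries). The cause of these moves was not tested. Counts were low for lin28a at 8 hpl, with 27 over the group, and for neurog1 in 16 hpl replicate 2, with 8.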
